A study of Rattus norvegicus with 172 samples.

Results

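The genes described here encode the subunits of the proteasome, its activators, its inhibitor and its assembly chaperones. They were chosen by name: every probe set with a single gene symbol of the families Psma, Psmb, Psmc, Psmd, Psme or Psmg followed by a digit, or Psmf1, with the brightest probe set standing for a gene that had several. This gave 44 genes of the 14217 with such a probe set, and all 44 were among the 10761 tested. Psmb6, a catalytic subunit, and Psme3, an activator, were not analysed here because their probe sets carry more than 1 symbol. RNA came from granule cells, the main neurons of the hippocampal dentate gyrus, which were captured by laser from cresyl violet stained sections of the hippocampus of male Sprague-Dawley rats and measured on 1-colour Affymetrix arrays, 172 arrays for 164 rats.

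The 28 groups come from 7 laboratories and 4 models of epilepsy, and every laboratory had its own controls. For pilocarpine (48 rats from laboratories called A and B), all rats, controls included, first received methylscopolamine, which blocks the peripheral effects of the drug, and then either pilocarpine at 300 to 350 mg/kg or saline. Pilocarpine is a cholinergic agonist that starts status epilepticus, a long continuous seizure, and pentobarbital ended it after 90 min. For kainate (48 rats, again laboratories A and B), this agonist of glutamate receptors was injected at 5 mg/kg every hour until status epilepticus began, and controls received saline. Laboratory A let the seizure end by itself after 6 to 8 h, whereas laboratory B began with 7.5 mg/kg and ended the seizure with pentobarbital after 90 min. SSSE, self-sustaining status epilepticus, was run in 1 laboratory (20 rats), and kindling, in which seizures grow through stages under repeated stimulation, in laboratories A and B (48 rats). How the SSSE and kindled rats were stimulated and what their controls received is not given in the sources used here. Rats of the 3 models of status epilepticus were taken at day 1, 3 or 10, and those of kindling when they had reached stage 2, 4 or 5. There were 6 rats a group, apart from 5 controls, 5 day 3 rats and 4 day 10 rats of SSSE. The labels of a pair of rats contradict each other. Day 1 rat 3 of SSSE is a day 1 rat in its title and a control in its other labels, and was kept at day 1. Stage 2 rat 4 of kindling laboratory A has a kindling stage and laboratory but is named as a kainate rat, and was kept in kindling.

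The proteasome is the main protease of the cytosol and the nucleus. Its core particle is a barrel of stacked rings, in which alpha subunits form the gate at each end and beta subunits form the inner chamber, where proteins tagged with ubiquitin are cut into peptides. The regulatory particle sits on the gate. Its base, a ring of ATPases, unfolds the substrate, and its lid removes the ubiquitin. Under interferon, other catalytic subunits replace the constitutive ones and give the immunoproteasome, and the activator of Psme1 and Psme2 can open the gate without ubiquitin. In neurons the proteasome degrades damaged proteins and also turns over synaptic proteins.

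Arrays had been scaled by the authors to a common trimmed mean of 150.04 to 150.06, and their median signals ran from 28 to 54.2. The 12 granule cell markers tested lay above the array's median in every one of the control rats. Of 15 microglia markers, 2 did so in every control and 4 in none. Astrocyte markers were present in the controls too, 10 of 13 of them above the median in each. So were 4 of 10 oligodendrocyte markers, 3 of 8 interneuron markers and 2 of 7 endothelial and pericyte markers. The interneuron markers were Gad1, Cck and Reln, whereas the others were above the median in 17 (Sst) to 37 (Slc32a1) of 41 controls. By the astrocyte and oligodendrocyte markers, the captured tissue was thus not free of other cells. In bulk RNA of this kind, fewer cells of a type and less RNA per cell cannot be told apart. At day 1 the granule cell markers themselves fell, 10 of 12 after pilocarpine and 10 of 12 after kainate, against 5 of 12, with 1 higher, in SSSE. Their summed signal was 15430 to 18200 in kainate laboratory A controls and 8846 to 10850 at day 1, and 19080 to 24530 against 9510 to 14820 in laboratory B. In pilocarpine laboratories A and B it went from 19950 to 30840 and 20420 to 25710 in controls to 12490 to 19190 and 11950 to 17690 at day 1, and in SSSE from 14080 to 17570 to 9929 to 14780. Astrocyte markers were also lower at day 1: of 13 tested, 8 fell and 2 rose after pilocarpine, 8 fell and 2 rose after kainate, and 6 fell and 1 rose in SSSE. Their summed signal went from 7779 to 16570 in controls to 3456 to 7611 at day 1 in pilocarpine laboratory A and from 6279 to 11480 to 3506 to 11720 in laboratory B. In kainate it went from 7468 to 11010 to 6054 to 9138 in laboratory A and from 7885 to 10860 to 5776 to 7272 in laboratory B, and in SSSE from 5775 to 8740 to 4690 to 7123. At day 3, 6 rose after pilocarpine, 4 after kainate and 0 in SSSE, and 0 fell in any of these models. RNA integrity measures moved as well: the mean log2 ratio of the 3' over the 5' beta-actin control probe sets was 3.48 in controls and 3.19 at day 1 in kainate laboratory A, 3.76 and 3.41 in kainate laboratory B, 3.51 and 3.08 in SSSE, but 4.10 and 4.18 in pilocarpine laboratory A and 4.33 and 4.35 in laboratory B. The part of these markers and ratios in the changes below was not tested. Of the pilocarpine laboratory A controls, 5 had a pair of arrays, with median signals of 45.5 to 54.2 on the first array and 35.2 to 43.3 on the second, against 33.5 to 39.2 in day 1 rats, and both were averaged.

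At day 1 more proteasome genes passed the threshold as higher than as lower in each model of status epilepticus, and the number was largest after kainate. There 28 of 44 genes were higher and 2 lower at an adjusted p under 0.05 (limma with Benjamini-Hochberg adjustment over all genes tested, 12 rats against 12), where 22.2% of all genes tested were higher and 19.4% lower. After pilocarpine 15 of 44 were higher and 0 lower, where 15.8% of all genes were higher and 16.3% lower, 32.1% in all. In SSSE 6 were higher and 1 lower (6 rats against 5), where 5.51% of all genes were higher and 7.02% lower. The median log2 change of the 44 genes was 0.281 after kainate, 0.198 after pilocarpine and 0.191 in SSSE, beside medians of 0.0157, 0.00335 and 0.000342 over all genes tested. Most of the genes are bright, and among the genes of the upper 50% by mean level, 24% were higher after kainate, 16.2% after pilocarpine and 6.99% in SSSE, beside 26, 14 and 6 of the 39 proteasome genes among them.

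**Figure D1:**
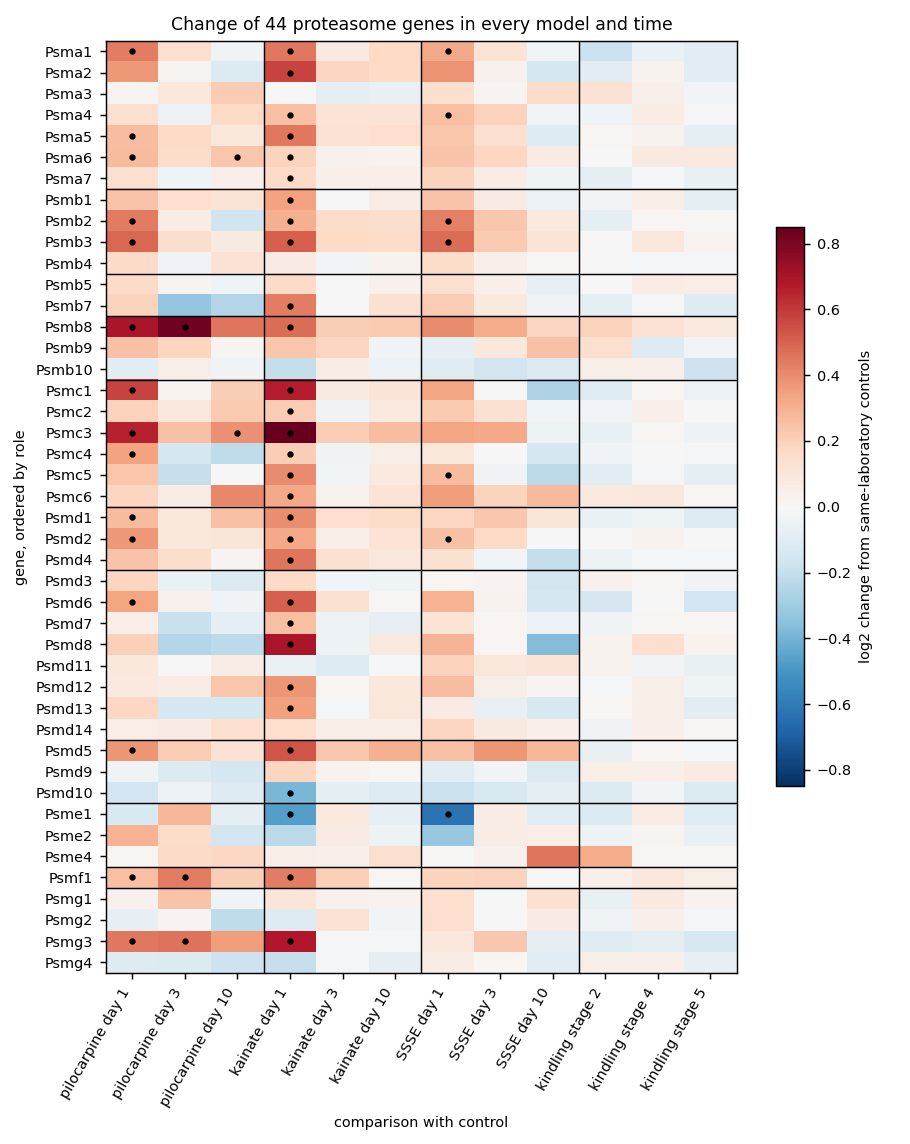
Log2 change of each of the 44 proteasome genes (rows, ordered by role, lines between roles) from the controls of the same laboratory in the 12 comparisons (columns), red for higher and blue for lower, with a black dot where the adjusted p is under 0.05. The dots lie in the day 1 columns, 15 for pilocarpine, 30 for kainate and 7 for SSSE, with 3 more at pilocarpine day 3, 2 at pilocarpine day 10 and none in the kindling columns.

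The shift was visible rat by rat. For each rat the median over the 44 genes of its difference from the mean of its laboratory's controls was taken. In pilocarpine laboratory A this median ran from 0.24 to 0.351 at day 1 (median rat 0.313), and from -0.0939 to 0.0653 in the controls. Kainate laboratory A gave 0.134 to 0.332 at day 1 (median rat 0.233) against -0.0686 to 0.0632 in controls, and laboratory B 0.192 to 0.397 (median rat 0.307) against -0.0526 to 0.0674. In these 3 laboratories every day 1 rat lay above every control rat. In pilocarpine laboratory B the day 1 rats ran from -0.013 to 0.275 (median rat 0.09) and overlapped the controls at -0.132 to 0.0551. SSSE day 1 rats ran from 0.0372 to 0.271 (median rat 0.202), and overlapped the controls, which reached 0.121. The same median over all genes tested stayed between -0.121 and 0.0611 in all day 1 rats.

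**Figure D2:**
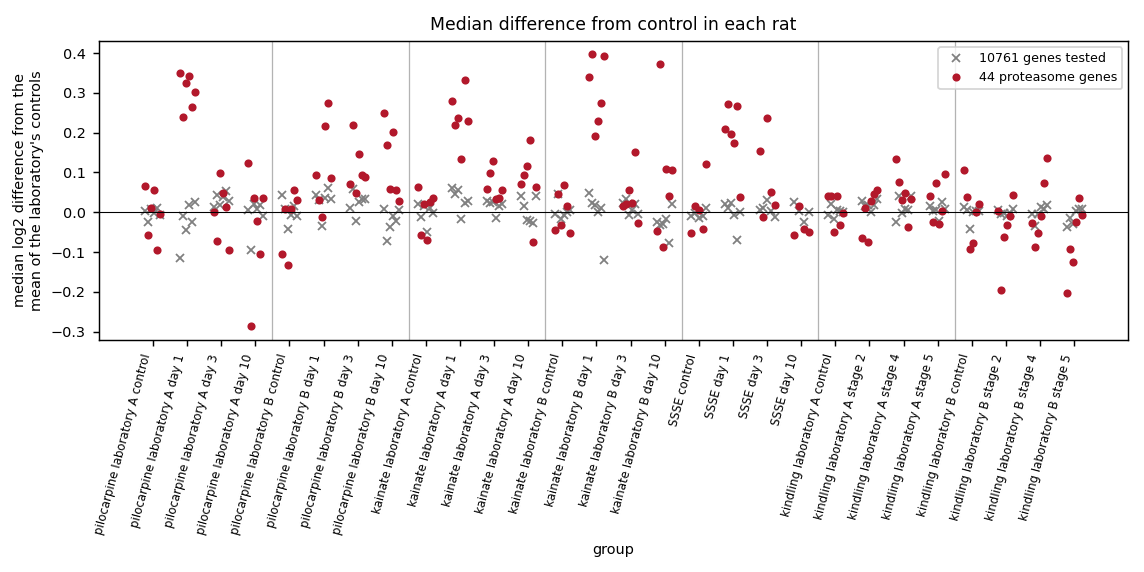
Median log2 difference of each rat from the mean of its laboratory's controls, over the 44 proteasome genes (red points) and over the 10761 genes tested (grey crosses), in each of the 28 groups. The red points reach from 0.24 to 0.351 at day 1 in pilocarpine laboratory A and from 0.192 to 0.397 in kainate laboratory B, where 1 day 10 rat also lies at 0.373, and those of the kindling groups run from -0.202 to 0.137.

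The 4 genes Psma1, Psmb2, Psmb3 and Psmd2 rose in all 3 models at day 1. Psma1 is an alpha ring subunit, Psmb2 and Psmb3 are beta subunits that carry no catalytic site, and Psmd2 is a large scaffold subunit of the base. Over all genes tested, 311 (2.89%) were higher in all 3 models, beside 9.09% of the proteasome genes. All 15 genes that rose after pilocarpine also rose after kainate, where 74.1% of all genes higher after pilocarpine did so. They make up 53.6% of the 28 genes higher after kainate, beside 52.7% over all genes. The 6 genes higher in SSSE were higher after kainate too, as were 74.9% of all genes higher in SSSE. The change was above 0 in all 3 models for 34 of the 44 genes (77.3%) and for 30.7% of all genes.

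Psmb3 was the most even of the 4. In pilocarpine laboratory A its log2 level was 9.004, 9.088 and 9.395 in controls (lowest, median and highest rat) and 9.49, 9.76 and 9.89 at day 1, with no overlap. In laboratory B it was 9.11, 9.15 and 9.32 in controls and 9.18, 9.69 and 9.91 at day 1, where the lowest day 1 rat fell within the control range. The change over both laboratories was 0.49 ± 0.09 (log2, SE), an adjusted p of 4.28e-05. Kainate laboratory A gave 9.02, 9.23 and 9.43 in controls and 9.61, 9.86 and 9.98 at day 1, and laboratory B 9.04, 9.29 and 9.49 against 9.32, 9.65 and 10.0, for a change of 0.51 ± 0.08 and an adjusted p of 3.5e-06. In SSSE the 5 controls stood at 8.94, 8.96, 8.95, 8.93 and 8.68, and the 6 day 1 rats ran from 9.03 to 9.63 with a median of 9.36, all above the controls, for a change of 0.47 ± 0.11 and an adjusted p of 0.0102. The 3 sizes lay within 1 SE of each other.

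Psmb2 changed by 0.44 ± 0.12 after pilocarpine (adjusted p 0.00409), 0.30 ± 0.09 after kainate (0.00405) and 0.43 ± 0.11 in SSSE (0.0157). Its 5 SSSE controls stood at 9.83, 9.72, 9.84, 9.78 and 9.52, below all 6 day 1 rats, which ran from 9.93 to 10.5 with a median of 10.1. For Psma1 the changes were 0.43 ± 0.15, 0.45 ± 0.09 and 0.32 ± 0.09, and for Psmd2 they were 0.37 ± 0.07, 0.32 ± 0.07 and 0.25 ± 0.07, in the same order of models.

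The start regions of these 4 genes, and of Psmc3 and Psmb8, are shown because the first rose together in 3 models and the other pair had the largest rises after kainate and pilocarpine. RefSeq (assembly GRCr8) held a start region of 300 bases, 250 before and 50 after the start, for 40 of the 44 genes, and Psma7, Psmd6, Psmd12 and Psmd14 had no entry. Capitals mark matches, on either strand, to 4 motifs. The first is the CCAAT box, spelled by its name. The GC box has the letters GGGCGG. The core of the antioxidant response element, the site family of the factor Nfe2l1 that drives proteasome genes, was searched as TGACNNNGC. The last is the core of the interferon-stimulated response element. Matches may run into each other, as in Psmb2, where a CCAAT box, an antioxidant core and a GC box form 1 run of capitals. The positions are chr1:177887808-177888107, minus strand, chr5:144254808-144255107, plus strand, chr10:83193537-83193836, plus strand, chr11:93763339-93763638, minus strand, chr3:97487393-97487692, plus strand, and chr20:4656982-4657281, minus strand, in the order printed.
Psma1: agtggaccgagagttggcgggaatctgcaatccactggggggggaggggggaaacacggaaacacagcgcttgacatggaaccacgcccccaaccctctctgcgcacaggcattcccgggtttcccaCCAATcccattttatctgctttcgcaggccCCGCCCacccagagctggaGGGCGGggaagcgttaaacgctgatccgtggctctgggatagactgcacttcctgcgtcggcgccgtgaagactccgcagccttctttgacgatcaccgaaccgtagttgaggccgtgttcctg
Psmb2: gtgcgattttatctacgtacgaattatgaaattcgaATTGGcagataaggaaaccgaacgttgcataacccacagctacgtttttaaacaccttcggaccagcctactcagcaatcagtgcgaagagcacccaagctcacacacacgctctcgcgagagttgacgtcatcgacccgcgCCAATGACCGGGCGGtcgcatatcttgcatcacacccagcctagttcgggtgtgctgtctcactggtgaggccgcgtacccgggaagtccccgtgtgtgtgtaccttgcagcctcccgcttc
Psmb3: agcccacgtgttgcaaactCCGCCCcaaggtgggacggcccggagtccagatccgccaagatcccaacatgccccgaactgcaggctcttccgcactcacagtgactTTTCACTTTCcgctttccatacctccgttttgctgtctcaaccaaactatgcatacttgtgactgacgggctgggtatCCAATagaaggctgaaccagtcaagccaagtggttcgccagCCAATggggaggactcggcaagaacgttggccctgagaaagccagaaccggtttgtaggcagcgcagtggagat
Psmd2: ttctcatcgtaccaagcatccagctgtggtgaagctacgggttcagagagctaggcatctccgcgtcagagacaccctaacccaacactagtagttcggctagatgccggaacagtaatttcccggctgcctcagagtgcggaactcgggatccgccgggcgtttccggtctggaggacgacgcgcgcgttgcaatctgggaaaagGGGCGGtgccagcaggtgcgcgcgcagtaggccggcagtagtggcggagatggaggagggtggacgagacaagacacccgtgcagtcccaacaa
Psmc3: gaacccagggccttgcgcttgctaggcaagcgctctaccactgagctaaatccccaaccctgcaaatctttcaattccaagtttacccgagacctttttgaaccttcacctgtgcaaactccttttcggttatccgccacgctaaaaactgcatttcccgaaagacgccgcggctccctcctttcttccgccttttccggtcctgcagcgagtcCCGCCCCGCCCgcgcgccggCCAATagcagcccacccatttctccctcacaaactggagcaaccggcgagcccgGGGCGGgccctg
Psmb8: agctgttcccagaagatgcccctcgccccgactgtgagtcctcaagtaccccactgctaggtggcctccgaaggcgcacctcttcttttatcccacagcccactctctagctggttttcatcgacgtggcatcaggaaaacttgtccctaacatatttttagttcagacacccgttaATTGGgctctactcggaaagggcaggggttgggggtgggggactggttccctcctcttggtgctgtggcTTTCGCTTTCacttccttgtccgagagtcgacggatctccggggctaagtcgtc
The GC box was present in 28 of the 40 proteasome start regions (70%) and in 33.1% of 33469 start regions of the table. The 40 are 1 region per gene. The 33469 are all entries of that length, not limited to 1 per gene or to the genes tested, so the sets are unlike. The CCAAT box was present in 20 (50%) against 37.5%. The antioxidant core was in 7 (17.5%) against 12.1%, which were those of Psma3, Psmb2, Psmb5, Psmd1, Psmd3, Psmd9 and Psme4. The interferon core was in 7 (17.5%) against 3.92%, those of Psma4, Psmb3, Psmb8, Psmb10, Psmd7, Psme2 and Psmg4. A match is a description of these letters and not a binding site.

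Among the alpha ring genes, which form the gate, Psma1, Psma2, Psma4, Psma5, Psma6 and Psma7 rose after kainate, by 0.17 for Psma7 to 0.57 for Psma2, and Psma3 stood at 0.00 ± 0.08. After pilocarpine Psma1, Psma5 and Psma6 rose, the last by 0.27 ± 0.08, and in SSSE Psma1 and Psma4 did, the last by 0.26 ± 0.07. All 7 changes were above 0 after pilocarpine and in SSSE.

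Of the beta subunits that carry no catalytic site, Psmb1 rose after kainate, beside Psmb2 and Psmb3 already given, and Psmb4 passed the threshold in no comparison with controls, in the mean of the laboratories or in either laboratory. The catalytic genes measured were Psmb5, of the chymotrypsin-like site, and Psmb7, of the trypsin-like site. Psmb5 had changes of 0.16 ± 0.09 after pilocarpine, 0.16 ± 0.08 after kainate and 0.14 ± 0.08 in SSSE at day 1, none past the threshold. Psmb7 rose by 0.43 ± 0.10 after kainate and stood at 0.19 ± 0.16 after pilocarpine and 0.22 ± 0.11 in SSSE.

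All 6 genes of the ATPase ring of the base, Psmc1 to Psmc6, rose after kainate, 3 rose after pilocarpine (Psmc1, Psmc3 and Psmc4), and Psmc5 rose in SSSE, by 0.27 ± 0.08. Averaged over the laboratories, Psmc3 after kainate had the largest day 1 change of all 44 genes. In kainate laboratory A its log2 level was 9.51, 9.69 and 9.79 in controls (lowest, median, highest) and 10.1, 10.2 and 10.4 at day 1, and in laboratory B it was 8.92, 9.01 and 9.27 against 9.51, 10.3 and 10.7. All 12 day 1 rats lay above the controls of their laboratory, and the change was 0.84 ± 0.10, a 1.8-fold rise (adjusted p 4.58e-09).

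After pilocarpine the Psmc3 rise was carried mostly by laboratory A. There the controls ran from 8.48 to 9.23 (median 9.10) and the day 1 rats from 9.78 to 10.3 (median 10.1), a change of 1.02 ± 0.18. In laboratory B the controls ran from 8.91 to 9.28 (median 9.18) and the day 1 rats from 9.03 to 9.85 (median 9.32), which overlapped, with a change of 0.29 ± 0.18. Over both laboratories the change was 0.65 ± 0.12 (adjusted p 5.78e-05). In SSSE the controls stood at 9.45, 9.56, 9.46, 9.49 and 9.78 and the day 1 rats ran from 9.62 to 10.3, a change of 0.33 ± 0.14 that did not pass the threshold (adjusted p 0.118).

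Psmc1 behaved alike. Its level ran from 9.02 to 9.59 (median 9.33) in kainate laboratory A controls and from 9.78 to 10.1 (median 9.83) at day 1, and in laboratory B from 8.72 to 9.11 (median 8.81) against 9.41 to 9.99 (median 9.60), so that 12 of 12 rats lay above their controls. The change was 0.67 ± 0.08 after kainate (adjusted p 6.29e-09) and 0.58 ± 0.11 after pilocarpine (9.73e-05), where 10 of 12 rats lay above their controls. In SSSE it was 0.34 ± 0.11, with an adjusted p of 0.0573. The other ATPases changed less: Psmc2 by 0.22 ± 0.08, Psmc4 by 0.21 ± 0.07, Psmc5 by 0.40 ± 0.08 and Psmc6 by 0.32 ± 0.09 after kainate. The probe sets of Psmc6 were uneven after pilocarpine. The brightest, used here, changed by 0.181, the next (mean log2 level 9.21) by 0.528 and the dimmest by 0.101.

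**Figure D3:**
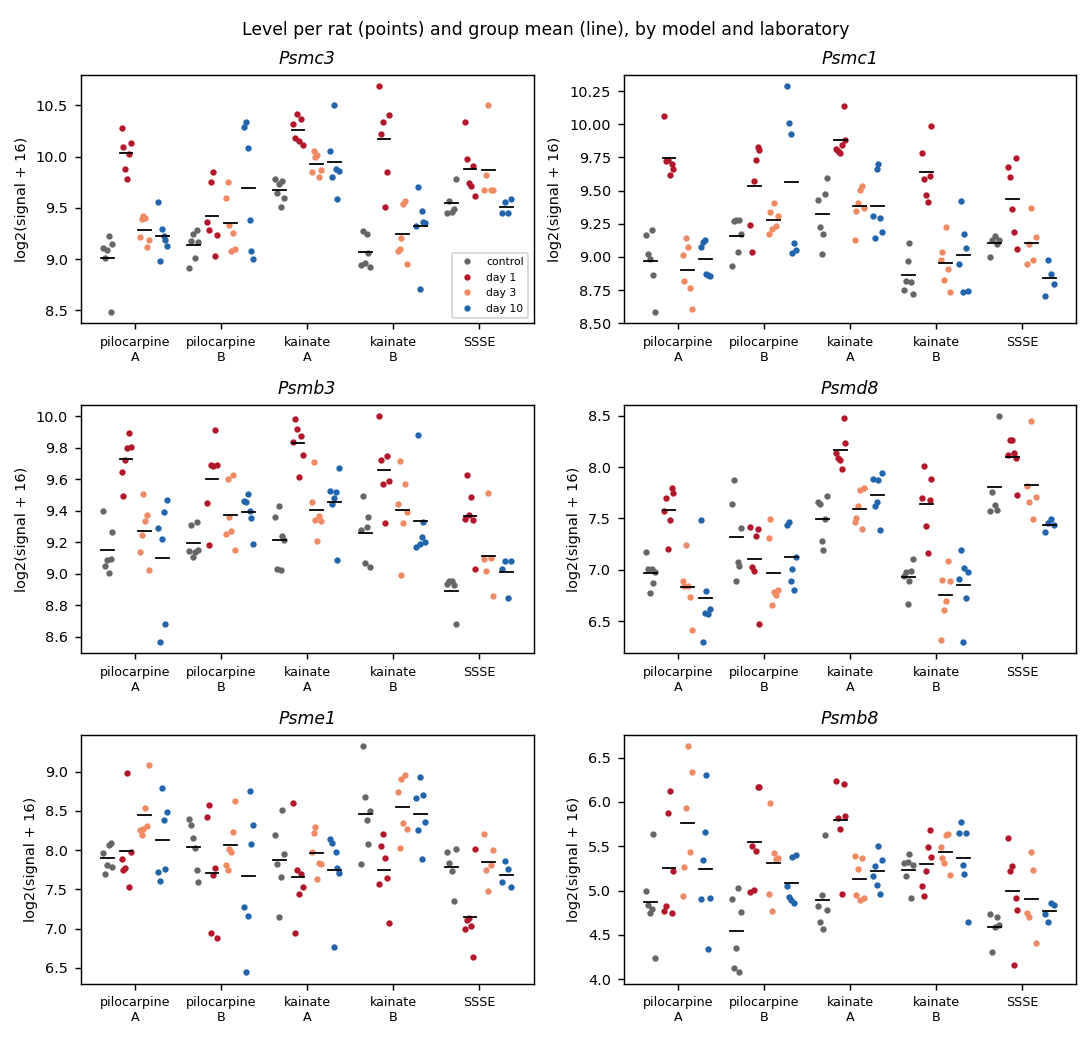
Log2 level (signal plus 16) of 6 genes in every rat (points) with the group mean (line), for controls (grey), day 1 (red), day 3 (orange) and day 10 (blue) of each laboratory of the 3 models of status epilepticus. Day 1 points of Psmc3 and Psmc1 lie above the controls in both kainate laboratories, from 9.51 upward for Psmc3, while those of Psme1 lie low in SSSE, at 6.63 to 8.01.

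The rest of the base comprises Psmd1 and Psmd2, the scaffold, and Psmd4, a ubiquitin receptor. All of them rose after kainate, Psmd4 the most at 0.45 ± 0.09, and both scaffold genes rose after pilocarpine, Psmd1 by 0.27 ± 0.10. In the lid, 5 of 8 genes rose after kainate (Psmd6, Psmd7, Psmd8, Psmd12 and Psmd13), 1 after pilocarpine (Psmd6, 0.33 ± 0.12) and none in SSSE, where 3 of the 8 had an unadjusted p under 0.05. Laboratory B did not share the pilocarpine rise of Psmd6: fitted alone, its change had the opposite sign. Averaged over the laboratories, Psmd3, Psmd11 and Psmd14, the deubiquitinating subunit, passed the threshold in no comparison with controls. In kainate laboratory B alone, Psmd14 was higher at day 1 by 0.24 ± 0.09 (adjusted p 0.0308).

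Psmd8 was the lid gene that differed between models. In kainate laboratory A its level was 7.19, 7.57 and 7.72 in controls and 7.98, 8.12 and 8.48 at day 1, and in laboratory B 6.67, 6.96 and 7.10 against 7.16, 7.69 and 8.01, with no overlap in either, for a change of 0.69 ± 0.10 (adjusted p 8.37e-08). In pilocarpine laboratory A it was 6.77, 6.99 and 7.17 against 7.20, 7.64 and 7.80, and in laboratory B 6.89, 7.24 and 7.87 against 6.47, 7.18 and 7.42. The laboratories of the pilocarpine model thus had changes of 0.62 ± 0.18 and -0.22 ± 0.18, and their mean of 0.20 ± 0.13 did not pass the threshold. The difference between the models, pilocarpine minus kainate, was -0.49 ± 0.15 in a fit of all 28 groups (adjusted p 0.0364), where 3.63% of all genes differed. It was the only one of the 44 genes past the threshold in the 3 pairs of models, where 2.36% of all genes differed between pilocarpine and SSSE and 0.743% between kainate and SSSE, and after quantile normalization there were 0.

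The base assembly chaperones, which build the ATPase ring and then leave it, moved both ways after kainate. Psmd5 rose by 0.53 ± 0.11. Psmd9 stood at 0.18 ± 0.09, with -0.213 on a dimmer probe set (mean log2 level 5.75). Psmd10, also called gankyrin, fell. Its level was 8.50, 8.58 and 8.74 in kainate laboratory A controls against 8.15, 8.27 and 8.54 at day 1, and 8.36, 8.60 and 8.74 against 7.78, 8.21 and 8.31 in laboratory B. Of the 12 rats 11 lay below their controls, and the change was -0.39 ± 0.07 (adjusted p 3.04e-05). It was -0.16 ± 0.09 after pilocarpine and -0.18 ± 0.10 in SSSE, neither past the threshold. After pilocarpine Psmd5 rose by 0.38 ± 0.14.

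The activator gene Psme1 fell at day 1 in SSSE and after kainate. In SSSE its 5 controls stood at 7.98, 7.83, 7.73, 7.36 and 8.02, and its 6 day 1 rats at 7.00, 7.11, 7.14, 7.03, 6.63 and 8.01. Day 1 rats 1 to 5 lay below all controls and rat 6 lay among them, and the change was -0.63 ± 0.19 (adjusted p 0.0322). The call was lost when any 1 of control rats 1, 2, 3 or 5, or of day 1 rats 1, 2, 3 or 5, was left out. After kainate the change was -0.47 ± 0.17 (adjusted p 0.0251), with -0.22 ± 0.24 in laboratory A, where controls ran from 7.14 to 8.51 and day 1 rats from 6.95 to 8.60, and -0.72 ± 0.24 in laboratory B, where controls ran from 7.82 to 9.32 and day 1 rats from 7.07 to 8.21. The groups overlapped in both laboratories. After pilocarpine it was -0.13 ± 0.20. A second, dimmer probe set of Psme1, with a mean log2 level of 5.13, changed by -0.104 after kainate and by 0.52 in SSSE, so the fall in SSSE was seen on the brighter probe set alone, and with the mean of both it was -0.0553 (adjusted p 0.753).

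Its partner Psme2 had changes of 0.29 ± 0.17 after pilocarpine, -0.23 ± 0.13 after kainate and -0.32 ± 0.14 in SSSE, none past the threshold, although 5 of 6 SSSE rats lay below their controls. By laboratory, its change after kainate was 0.07 ± 0.19 in A and -0.53 ± 0.19 in B, where it passed the threshold (adjusted p 0.0249). Psme4, the nuclear activator, is a case where the probe sets disagreed. The probe set used changed by 0.0143 after pilocarpine and 0.0524 after kainate, whereas a nearly as bright one changed by 0.947 and 0.694 and the other, dimmer one by 0.336 and 0.627. Psmf1, the inhibitor, rose by 0.44 ± 0.08 after kainate and 0.25 ± 0.10 after pilocarpine.

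The 20S assembly chaperones pair up to guide the formation of the core. Of the 4, Psmg3 alone was called: it rose by 0.68 ± 0.13 after kainate, from a median of 7.67 in the controls to 8.45 at day 1 in laboratory A and from 7.59 to 8.36 in laboratory B, and by 0.45 ± 0.14 after pilocarpine. In SSSE it stood at 0.09 ± 0.14. Psmg1, Psmg2 and Psmg4 had changes of 0.10 ± 0.07, -0.11 ± 0.08 and -0.19 ± 0.12 after kainate.

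**Figure D4:**
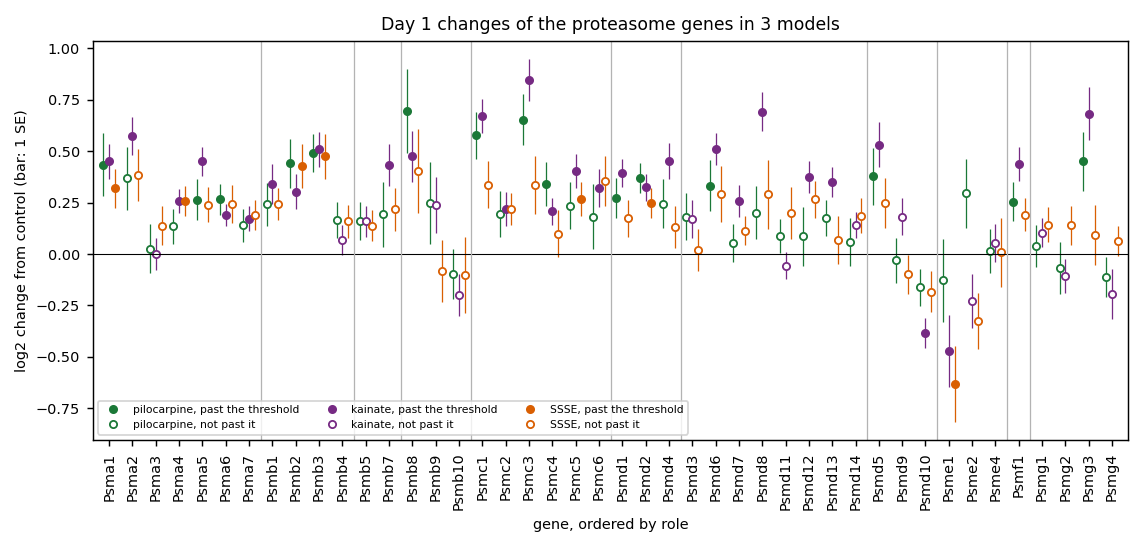
Day 1 log2 change from control with 1 SE for each of the 44 genes (ordered by role, lines between roles) after pilocarpine (green), after kainate (purple) and in SSSE (orange), with filled points past an adjusted p of 0.05. Most points lie above 0, Psmc3 after kainate highest at 0.84, and Psmd10 and Psme1 lie below 0 in all 3 models.

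The inducible catalytic genes of the immunoproteasome were dim. Psmb8 lay above the array's median in 19 of 164 rats and Psmb9 in 8, against all 164 for the other 42 genes. Both entered the test, which asked for 6 such rats, through few rats. For Psmb8 these included 5 of 6 in kainate laboratory A at day 1, against 1 of 6 in its controls, and 2 of 6 in each pilocarpine laboratory at day 1, against 0 in their controls. A gene that enters through the groups where it is high is more likely to be called, and a change at such levels is understated by the added 16. Psmb8 rose after pilocarpine at day 1 by 0.70 ± 0.20 (adjusted p 0.00674) and at day 3 by 0.83 ± 0.20 (0.0041), and after kainate at day 1 by 0.48 ± 0.12 (0.0017). Fitted with no filter on low values, the adjusted p were 0.00848, 0.005 and 0.00214. The laboratories did not share it evenly. In pilocarpine laboratory A the level was 4.24, 4.82 and 5.64 in controls (lowest, median, highest) and 4.75, 5.02 and 6.12 at day 1, which overlapped. In laboratory B it was 4.08, 4.55 and 5.04 against 4.99, 5.48 and 6.17, where the lowest day 1 rat lay within the control range. In kainate laboratory A it was 4.56, 4.80 and 5.63 against 4.96, 5.83 and 6.24, and in laboratory B 4.92, 5.30 and 5.41 against 4.94, 5.30 and 5.69, with changes of 0.89 ± 0.18 in laboratory A and 0.06 ± 0.18 in laboratory B. The difference between the laboratories did not pass the threshold (adjusted p 0.419).

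Microglia markers were higher too at these times. Of the 15 tested, 9 were higher and 1 lower at pilocarpine day 1, 11 higher at day 3, and 8 higher and 1 lower at kainate day 1. Their summed signal went from 547 to 1739 in pilocarpine laboratory A controls to 1241 to 2918 at day 1 and 1816 to 7546 at day 3, and from 530 to 929 to 1120 to 3815 and 1324 to 2979 in laboratory B. In kainate laboratory A it was 499 to 1629 in controls and 882 to 1916 at day 1, and in laboratory B 591 to 973 and 692 to 1324. At kainate day 3, where Psmb8 did not pass the threshold, 12 of the 15 were higher. The part of microglia in the Psmb8 values was not tested. Without the inducible genes, 27 of the other 41 genes were higher after kainate and 14 after pilocarpine. Psmb9 stood at 0.25 ± 0.20 after pilocarpine, 0.24 ± 0.14 after kainate and -0.08 ± 0.15 in SSSE, and Psmb10 at -0.10 ± 0.12, -0.20 ± 0.10 and -0.10 ± 0.19, none past the threshold.

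Genes that share the interferon response were measured beside them. Of 15 tested, 7 were higher at pilocarpine day 1, with Irf9 (0.79 ± 0.14), Rsad2 (0.67 ± 0.22), Irf8 (0.60 ± 0.13) and Isg15 (0.58 ± 0.22) the largest, and 4 at day 3. After kainate 5 were higher, Irf9 at 0.68 ± 0.11 and B2m at 0.57 ± 0.17, and 2 lower, Usp18 at -0.63 ± 0.12 and Irf7 at -0.53 ± 0.13. In SSSE 0 were higher by limma and Stat2 and Usp18 were lower, by -0.79 ± 0.23 and -0.64 ± 0.20. Over all genes tested, 15.8% were higher at pilocarpine day 1 and 7.74% at day 3. At day 1 after kainate 22.2% were higher and 19.4% lower, and in SSSE 5.51% and 7.02%.

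The partners of the proteasome that the naming rule leaves out, 24 genes of ubiquitin loading, shuttling and assembly, were counted in the same way. After kainate 11 were higher and 0 lower, led by Uba1, the main ubiquitin-activating enzyme (0.55 ± 0.07), Vcp, the unfolding ATPase that hands substrates on (0.50 ± 0.09), Ecpas, an adaptor of the proteasome (0.45 ± 0.09), and Nploc4, a cofactor of Vcp (0.45 ± 0.09). After pilocarpine 6 were higher, with Ecpas at 0.46 ± 0.17, Pomp, the maturation chaperone of the core, at 0.43 ± 0.09, and Uba1 at 0.39 ± 0.14, and 1 lower, Ngly1, which processes Nfe2l1, at -0.52 ± 0.11. In SSSE only Uba1 was called, at 0.37 ± 0.09, while 8 of the 24 had an unadjusted p under 0.05. At kindling stage 5, 3 partners were lower, Ubqln1 (-0.23 ± 0.07), Ngly1 (-0.21 ± 0.06) and Ufd1 (-0.16 ± 0.05). Over all genes tested, 22.2% were higher at day 1 after kainate, 15.8% after pilocarpine and 5.51% in SSSE. At kindling stage 5, 3.87% were lower.

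Other large complexes gave fewer calls upward. Of 41 ribosomal protein genes, 5 were higher and 2 lower after kainate, with a median change of 0.0088, and 5 and 0 after pilocarpine. Of 85 subunit genes of oxidative phosphorylation, 11 were higher and 8 lower after kainate, with a median of -0.011, and 5 and 6 after pilocarpine. In SSSE 0 of the ribosomal genes passed by limma, with 11 at an unadjusted p under 0.05, and 4 of the oxidative phosphorylation genes were higher. These are counts beside those of the proteasome genes, and no test between the lists was made.

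The laboratories of a model were compared directly at each time. In pilocarpine, 13 proteasome genes were higher than the controls in laboratory A, where 10.2% of all genes were, and 3 in laboratory B, where 7.91% were, with median changes of 0.294 and 0.125. When each laboratory was fitted alone, the counts were 11 and 2. In kainate, 17 were higher and 1 lower in laboratory A, where 12.4% and 9.24% of all genes were, and 27 higher and 3 lower in laboratory B, where 16.4% and 16.2% were, with medians of 0.228 and 0.33. Fitted alone, each kainate laboratory gave 23 changed genes. The difference between the laboratories passed the threshold for 0 of the 44 genes at any time. Over all genes tested it passed for 0% at each time but kainate day 1, where 1 gene (0.00929%) did. Of the proteasome genes there were 7 at an unadjusted p under 0.05 at pilocarpine day 1 and 4 at kainate day 1, and in a fit of all 28 groups 8 passed. No share over all genes is given for these counts or for those of laboratories fitted alone, so they cannot be set against a background.

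**Figure D5:**
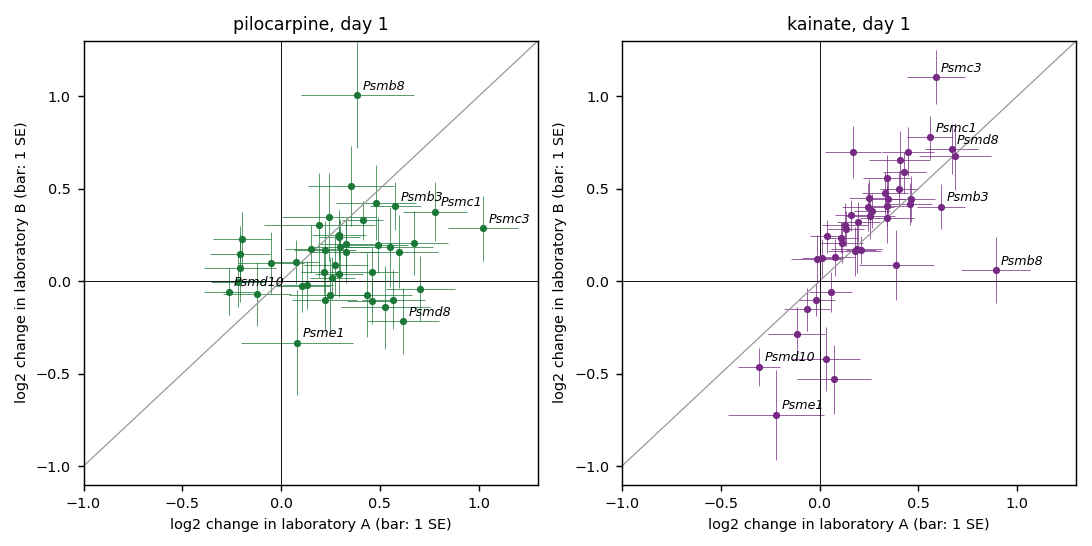
Day 1 log2 change of the 44 genes in laboratory A (horizontal) against laboratory B (vertical) of the pilocarpine model (left, green) and of the kainate model (right, purple), bars 1 SE, the grey line marking equal changes. Kainate genes lie mostly above 0 in both laboratories, with Psmb8 apart at 0.89 and 0.06, while many pilocarpine genes lie right of the line, Psmc3 at 1.02 and 0.29.

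The SSSE count moved with single rats. The 7 genes called at day 1 became 18 without day 1 rat 6, whose 2 arrays were averaged, and 12 without day 3 rat 4. They became 2 without day 1 rat 1, rat 2 or rat 3, the last with contradictory labels, 4 without day 1 rat 5, and 3 without control rat 1, rat 2 or rat 3. The median change of the 44 genes at day 1 stayed between 0.166 and 0.218 in all of these.

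By day 3 fewer genes passed the threshold than at day 1, but the shift had not gone in every laboratory. In pilocarpine laboratory B the median rat stood at 0.0915 (0.0472 to 0.22), beside 0.09 at day 1 and 0.114 at day 10. At day 3 the median rat stood at 0.00772 in pilocarpine laboratory A and at 0.052 in SSSE. It stood at 0.0568 and 0.0213 in kainate laboratories A and B. After pilocarpine 3 genes were higher than control, where 7.74% of all genes were: Psmb8, Psmg3 (0.46 ± 0.14) and Psmf1 (0.44 ± 0.10). Psmf1 rose from 8.12, 8.25 and 8.42 in laboratory A controls to 8.60, 8.77 and 9.01, without overlap, and from 8.01, 8.25 and 8.39 to 8.37, 8.46 and 8.83 in laboratory B, where the lowest day 3 rat lay below the highest control. After kainate and in SSSE 0 genes passed the threshold by limma. There 7.96% of all genes (4.66% higher, 3.3% lower) and 3.14% (1.66% higher, 1.48% lower) passed it. At an unadjusted p under 0.05, a looser cut, there were 4 and 6, with no share over all genes given here. The median changes were 0.0637 after pilocarpine, 0.0447 after kainate and 0.0652 in SSSE.

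Set directly against day 1, day 3 was lower for 11 genes after pilocarpine and for 24 after kainate, where 9.13% and 15.9% of all genes were lower and 23.2% and 31.1% differed in either direction. The largest falls after kainate were those of Psmd8 (-0.73 ± 0.10), Psmg3 (-0.70 ± 0.13), Psmc3 (-0.63 ± 0.10) and Psmc1 (-0.59 ± 0.08), and after pilocarpine those of Psmc1 (-0.55 ± 0.11), Psmb7 (-0.52 ± 0.16), Psmc4 (-0.49 ± 0.11) and Psmd8 (-0.45 ± 0.13). After kainate 4 genes were higher at day 3 than at day 1, where 15.3% of all genes were. They were Psme1 (0.55 ± 0.17), Psmd10 (0.31 ± 0.07), Psmb10 (0.26 ± 0.10) and Psmg2 (0.23 ± 0.08). In SSSE 0 genes differed between day 1 and day 3 by limma, where 0.604% of all genes did. At an unadjusted p under 0.05 there were 9, and 5 differed at the adjusted threshold without day 1 rat 6. Fitted alone, pilocarpine laboratory B gave 0 and laboratory A 15.

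At day 10 after pilocarpine 2 of the 44 genes were above control, Psmc3 (0.39 ± 0.12, adjusted p 0.0388) and Psma6 (0.23 ± 0.08, 0.0397). This was near the share over all genes, of which 3.82% were higher and 5.11% lower. Neither gene had passed the threshold at day 3. The count was 0 in either laboratory fitted alone, and 1 without rats 2 and 5 of laboratory A, which stand apart from their group. For Psmc3 the laboratory B rats of day 10 were spread from 9.002 to 10.34, wider than the controls at 8.91 to 9.28. After kainate and in SSSE 0 genes passed by limma, where 6.28% of all genes (2.57% higher, 3.71% lower) and 0.344% passed. At an unadjusted p under 0.05 there were 4 each. Between day 10 and day 3, 0 of the 44 genes passed by limma after pilocarpine, after kainate and in SSSE. At the same adjusted threshold 1.68% (1.53% lower), 0.743% and 0% of all genes passed. At an unadjusted p under 0.05, a looser cut, there were 4, 1 and 8 of the 44, with no share over all genes given here. Psmd5 stood at 0.30 ± 0.11 after kainate, with an adjusted p of 0.0867.

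In kindled rats 0 of the 44 genes passed the threshold by limma at any stage. The median changes were -0.026, 0.0289 and -0.0224 at stages 2, 4 and 5, and the numbers at an unadjusted p under 0.05 were 3, 1 and 3. The shares over all genes at that unadjusted p are not given. At the adjusted threshold none of all genes tested was called at stages 2 and 4, and 7.1% of them were at stage 5. The largest change at stage 5 was that of Psmb10, -0.18 ± 0.08 with an adjusted p of 0.213, and the highest was Psmb8 at 0.08 ± 0.10. Psme1 and Psme2 were not past the threshold either, and the ranges over all 44 genes were -0.181 to 0.312 at stage 2, -0.112 to 0.144 at stage 4 and -0.177 to 0.0827 at stage 5.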

How the data were processed

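The deposited table holds, per the file headers, 1 linear signal intensity per probe set and array. The authors made these intensity values with MAS5, per the submitters' processing notes, which give no version, and RNA of an integrity number above 7, at least 10 ng per rat, was amplified, per the labels' protocols. The 31099 probe sets include 57 array controls, 436 with several symbols and 9780 with none, all left out, and 20826 with 1 symbol in the annotation table. Here 16 was added to each signal, log2 taken, and the 2 arrays of 8 rats averaged (their correlations were 0.946 to 0.996). A probe set had to lie above the median of its array in at least 6 rats, and the brightest stood for its gene.

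Each model was fitted with limma 3.58.1 in R 4.3.3 with 1 mean per group. Changes are from each laboratory's own controls, with both laboratories of a model weighted equally, with Benjamini-Hochberg adjustment over 10761 genes and a threshold of 0.05. Differences between models came from 1 fit of all 28 groups. Counts at an unadjusted p under 0.05 and counts of alternative fits come without the share over all genes at the same cut. The code was tested on simulated data. Errors are standard errors of the fit, and the number of rats limits the precision. No batch beyond the laboratory is given in the labels used here. Replicates are separate rats. Start regions were read from the RefSeq table, with no link to the array's own build. Plots used matplotlib.

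The members and gene lists were chosen with earlier results of these data known. Every member is named. Values are given for the 4 largest rises and 4 largest falls called with 1 sign in every laboratory in each comparison, for Psmb5, Psmb8, Psmb9, Psmb10, Psme1 and Psme2 always, and for up to 4 called genes of the partner and interferon lists. Further members are given to complete their role, and the lists of other cell types were checked in the same fits. Alternatives were the added constant, no filter, quantile normalization, the mean of probe sets, all groups in 1 fit, a replicate block, single arrays, and rats or laboratories left out. Rat numbers were not used as pairs in the main fit, and the replicate block was run as an alternative. Of 240 pairs with the same number in a laboratory, 89 correlated above 0.1. Whether rats with the same number share a step of processing was not tested.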

Additional observations from a re-analysis of the deposited data

Results flagged for a closer look

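For the genes with values, control and day 1 groups outside kindling were searched for a rat far from the others, as were the medians over the 44 genes in all groups. Of 198 such searches 14 found one (7.07%), where chance gives about 5%. The highest rats were, in log2 level with the next value in its group, SSSE day 1 rat 6 for Psme1 (8.01, next 7.14), pilocarpine laboratory A day 1 rat 4 for Psme1 (8.99, next 7.97), SSSE control rat 5 for Psmd8 (8.50, next 7.75), kainate laboratory A control rat 5 for Psmb8 (5.63, next 4.95), kainate laboratory B day 1 rat 6 for Psmb2 (10.50, next 9.93), and, in pilocarpine laboratory B controls, rat 4 for Psme2 (8.64) and rat 5 for Psmg3 (7.97). Day 1 rat 1 of pilocarpine laboratory A was highest for both Psmc1 (10.06) and Psmc5 (9.98), and day 1 rat 5 of kainate laboratory A for Psmc1 (10.14). The lowest rats were pilocarpine laboratory A control rat 5 for Psmc3 (8.48, next 9.02), SSSE control rat 5 for Psmb3 (8.68, next 8.93), SSSE day 1 rat 6 for Psmd8 (7.73, next 8.09) and pilocarpine laboratory A day 1 rat 5 for Psma6 (11.20, next 11.40).

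Some changes differed between groups. Psmd8, 1 of the 44 genes, changed less after pilocarpine than after kainate at day 1, by -0.49 on the log2 scale, where 3.63% of all genes differed. Its change was above 0 in pilocarpine laboratory A and below 0 in laboratory B. The difference between the models was not past the threshold after quantile normalization. Day 3 differed from day 1 in 11 of the 44 proteasome genes after pilocarpine and in 28 after kainate, where 23.2% and 31.1% of all genes did in either direction. The pilocarpine count was near that share, and all 11 were lower, where 9.13% of all genes were. Psmd9, a base assembly chaperone, was at day 3 above the control mean in every rat of kainate laboratory A, by 0.0167 or more, and below it in every rat of pilocarpine laboratory A, by at least -0.162 on the log2 scale, a difference that was not tested.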

How the results depend on the processing

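The alternatives gave 611 values for the 58 changes past the threshold (gene by comparison). Of these values 545 were past it in the same direction, 65 were not past it, and 1 was reversed: Psmd6 at pilocarpine day 1, -0.0407 with laboratory B fitted alone. With 1 SSSE rat left out, 97 of 140 values stayed past it. The counts moved as follows. At pilocarpine day 1 the 15 genes became 25 with all 28 groups fitted together and 2 in laboratory B alone, and at day 3 the 3 became 7, 1 in laboratory A alone and 0 in laboratory B alone. At pilocarpine day 10 the 2 became 1 with no filter, 1 with quantile normalization, 1 without the rats that stand apart, 1 with the replicate block, 10 with all groups together, and 0 with second arrays (chosen after seeing the data) or either laboratory alone. Between pilocarpine day 3 and day 1 the 11 became 22 with all groups together and 0 in laboratory B alone, and between days 10 and 3 the 0 became 4 with all groups together. Between kainate day 3 and day 1 the 28 became 13 in either laboratory alone. The 7 of SSSE day 1 became 12 with 64 added, 3 with all groups together and 2 without the rats of contradictory labels, and ran from 2 to 18 with 1 rat left out, while SSSE day 3 against day 1 ran from 0 to 5. The 1 gene that differed between models became 0 with quantile normalization, 2 with the mean of probe sets, 3 with the replicate block and 2 with first arrays, and the 0 between laboratories became 8 with all groups together and 1 with first arrays. These alternatives for differences between laboratories and models were added after seeing the data. The causes were not tested. The replicate block changed no other count by over 1.5 times. The mean correlation of rats with 1 number was 0.0528, against -0.01 for others, and 50 of 164 rats correlated best with their own number. No chance value is given for these, and an effect shared by rats of the same number was not tested. The kainate day 1 count of 30 stayed within 1.5 times under every alternative, at 23 in either laboratory alone. Low signals limit Psmb8 and Psmb9.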
